A study of Capra hircus with 2 samples.

Results

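The microRNAs (miRNAs) miR-205 and miR-31 were followed in the mammary gland of the dairy goat. They are 2 of the 346 conserved goat miRNAs listed by name and mature sequence in the study's supplement, and they were taken by name. Mammary gland was sampled from Xinong Saanen goats, a dairy breed, that were 2.5 years old and received no treatment named in the labels or methods. The RNA of 3 goats was pooled for the dry period, when no milk is made, and the RNA of 3 goats was pooled for peak lactation. By the methods, the dry period lies 320 days after lambing and peak lactation 75 days after it, while the labels swap the 2 days. Each stage was thus 1 small RNA library of pooled animals, no replicate check exists for any value here, and every test compares the pair of libraries and not the stages.

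A miRNA guides a silencing complex to mRNAs that pair with its seed, which is bases 2 to 8 from its 5′ end. Both miRNAs are known from epithelium. In the mammary gland miR-205 has been described in basal and progenitor cells of the ducts, and together with the miR-200 family it represses ZEB1 and ZEB2, transcription factors that silence the epithelial adhesion gene CDH1. miR-31 is made by keratinocytes and mammary epithelial cells and has been studied in mammary stem cells and in the metastasis of breast tumours.

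The listed mature sequences are shown because the counting rests on them, with the seed in capitals.
miR-205: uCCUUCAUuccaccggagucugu
miR-31: aGGCAAGAugcuggcauagcugu
Both are 23 nt long. Aligned base by base they match at 6 of 23 positions and at 0 positions of the seed, so reads of one could not be taken for the other. No other listed miRNA had either seed (0 of the rest for each). Their last 4 bases are the same, CUGU, an ending that 14 of the 346 listed sequences have (4.05%).

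There were 14851375 clean reads from the dry period and 15712891 from peak lactation, with lengths of 18 to 44 nt. The share of conserved miRNAs in all clean reads was 61.15% in the dry period against 14.42% at peak lactation, a log2 ratio of -2.08. That difference touches every level below, so levels are given both per 1000000 clean reads (RPM) and per 1000000 conserved miRNA reads. The study's own totals of reads matched to conserved miRNAs lie closer together than the 9081514 (dry period) and 2266176 (peak lactation) counted here. Why they differ was not tested. On the study's totals, log2 fold changes per conserved miRNA read would be raised by less. Their direction on that scale therefore rests on the totals counted here. A count of 0 allows 0.20 RPM in the dry period against 0.19 RPM at peak lactation (3 reads). All intervals are 95% intervals and, like the floors, cover counting error only, since PCR copies were not told apart by molecular identifiers.

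miR-205 was the more abundant of the pair, and in these bulk libraries fewer cells of a type and less RNA per cell cannot be told apart. It had 3119 reads in the dry period library, or 210.0 RPM (Wilson 203 to 218), and 1392 reads in the peak lactation library, or 88.6 RPM (84.1 to 93.4). Among the 346 listed miRNAs it ranked 72 in the dry period against 70 at peak lactation. Per 1000000 conserved miRNA reads its level was 343 (332 to 356) and then 614 (583 to 647). The intervals of the libraries did not overlap on either scale, and the order of the libraries was opposite on the 2 scales.

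miR-31 was scarce. It had 185 reads, 12.5 RPM (10.8 to 14.4), in the dry period and 55 reads, 3.50 RPM (2.69 to 4.56), at peak lactation, at ranks 162 and 171. Per 1000000 conserved miRNA reads it stood at 20.4 (17.6 to 23.5) and 24.3 (18.6 to 31.6), where the intervals overlap.

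**Figure D1:**
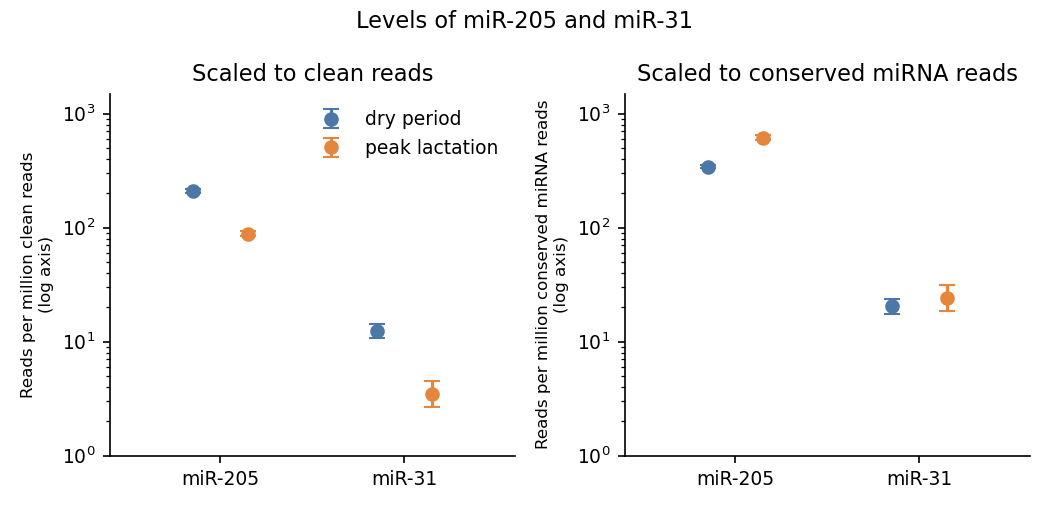
Level of miR-205 and miR-31 in the dry period library (blue) and the peak lactation library (orange), on log axes, in reads per 1000000 clean reads (left) and per 1000000 conserved miRNA reads (right). Points are 1 library each and bars are Wilson 95% intervals of the reads. miR-205 lies at 210.0 and 88.6 RPM and miR-31 at 12.5 and 3.50 RPM, while on the right miR-205 lies at 343 and 614 and the intervals of miR-31 overlap.

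Scaled to clean reads, as the study's methods do, the log2 fold change of peak lactation over dry period was -1.25 for miR-205 (-1.34 to -1.15), a level 2.37-fold lower at peak lactation, but with conserved miRNA reads as the scale it was 0.84. The Audic-Claverie test, which asks whether read counts of a pair of libraries fit 1 common abundance, gave an exact two-sided p of 1.9e-171. For miR-31 the log2 fold change per clean read was -1.83 (-2.26 to -1.40), 3.56-fold lower, with an exact Audic-Claverie p of 1.8e-19, against 0.25 per conserved miRNA read. Both passed the call rule on clean reads, with p below 0.01 and an absolute log2 fold change of over 1. So did most miRNAs, with 67.7% of the 257 tested miRNAs called lower at peak lactation and 1.17% called higher on clean reads. A call shared with 174 of 257 miRNAs is near the background and is not a result about these miRNAs. On conserved miRNA reads 5.84% of the tested miRNAs were called lower and 33.1% higher, and neither miR-205 nor miR-31 was called.

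The median log2 fold change of the 257 tested miRNAs was -1.44 on clean reads, with quartiles of -2.15 and -0.92, and 247 of them lay below 0. Relative to that median miR-205 stood at 0.19 (0.10 to 0.29), with 149 tested miRNAs below it and 107 above. miR-31 stood at -0.39 (-0.82 to 0.04), with 95 below and 161 above, and its interval reached the median. Both lay between the quartiles. These positions are the same in any scaling, because a scaling moves all miRNAs together.

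**Figure D2:**
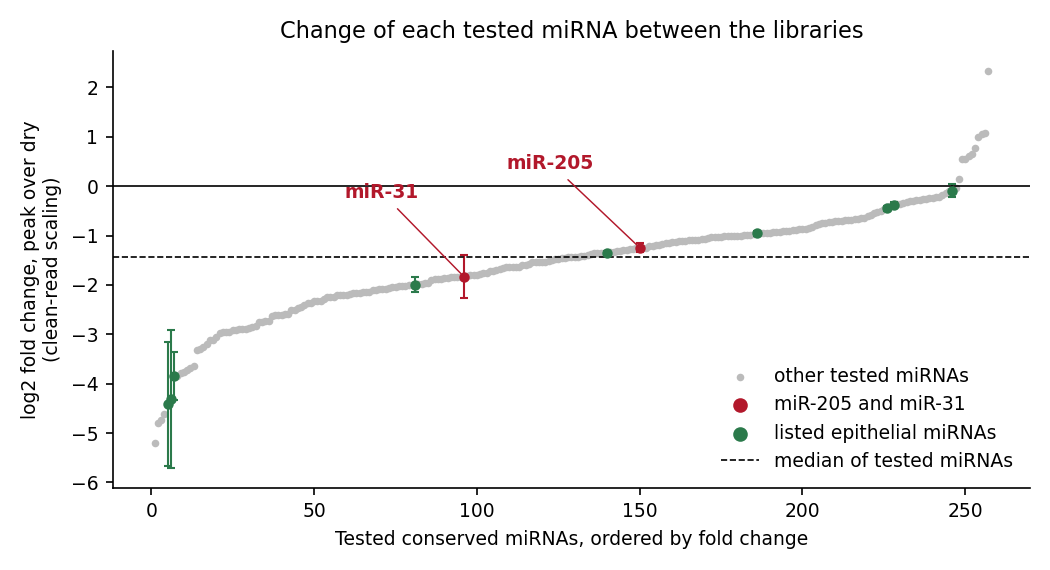
Log2 fold change, peak lactation over dry period on clean reads, of the 257 tested miRNAs in rising order. miR-205 and miR-31 are red, the 9 listed epithelial miRNAs green and the other miRNAs grey, bars are 95% intervals of the reads, and the dashed line is the median of -1.44. miR-205 (-1.25) lies above the median and miR-31 (-1.83) below it, and per conserved miRNA read all points would stand 2.08 higher.

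The scaling set the direction. Against clean reads, scaling to conserved miRNA reads raised all log2 fold changes by 2.08, the TMM factors of edgeR by 1.30, the size factors of DESeq2 by 1.40 and the clean reads of 18 to 25 nt by 0.21. miR-205 then had log2 fold changes of 0.84 (0.75 to 0.93), 0.05 (-0.04 to 0.15), 0.15 (0.06 to 0.24) and -1.03. miR-31 had 0.25 (-0.18 to 0.69), -0.53 (-0.96 to -0.10), -0.44 (-0.87 to -0.003) and -1.62. Only scaling to all clean reads or to the short ones made a call, lower at peak lactation for both miRNAs.

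**Figure D3:**
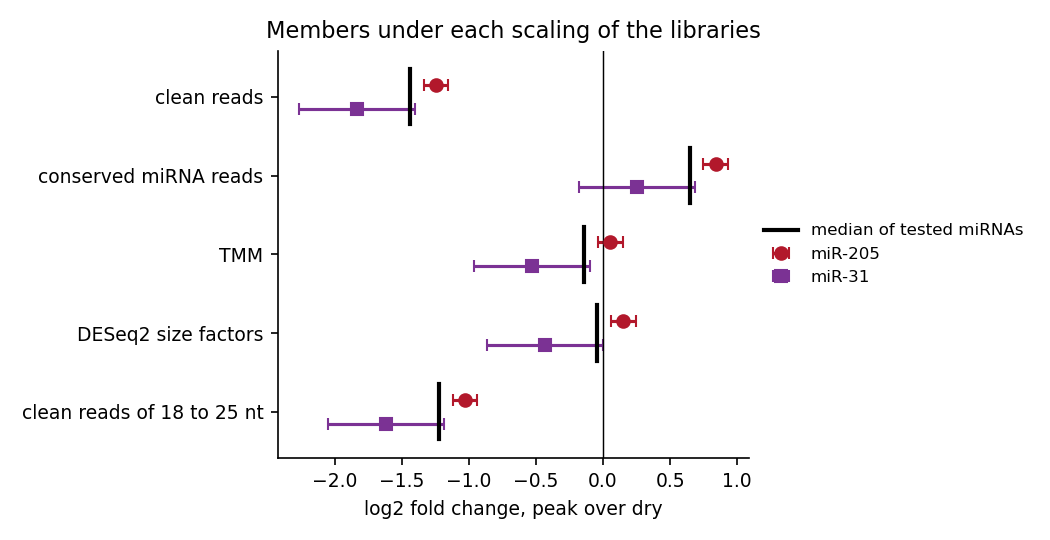
Log2 fold change of miR-205 (red circles) and miR-31 (purple squares) under each of 5 scalings of the libraries, with 95% intervals of the reads. Black bars are the median of the 257 tested miRNAs. miR-205 lies from -1.25 to 0.84 and miR-31 from -1.83 to 0.25, and both keep their distance to the median, 0.19 and -0.39.

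The pair could be compared without any scaling. There were 16.9 reads of miR-205 for each read of miR-31 in the dry period against 25.3 at peak lactation. The log2 fold change of miR-31 was thus 0.59 below that of miR-205 (difference -0.59, interval -1.03 to -0.14), and the split of reads differed between the libraries (Fisher's exact test, two-sided, p = 0.0094). With 55 reads of miR-31 at peak lactation, the size of this difference is loosely set.

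In the order of levels, few neighbours were separable by counting error. In the dry period library miR-205 stood below miR-151, whose 3363 reads were 1.08 times as many (1.03 to 1.13), and above miR-29b with 2968 reads, a ratio of 0.952 (0.905 to 1.001). In the peak lactation library its neighbours miR-148b with 1421 reads and miR-186 with 1296 reads were within counting error of it. For miR-31 the neighbours were miR-484 with 197 reads and miR-380-3p with 180 in the dry period and miR-493 with 58 and miR-299 with 51 at peak lactation, none separable from it. Of miRNAs with at least 100 reads in both libraries, those nearest in log2 fold change to miR-205 were miR-30e-5p, miR-423-3p and miR-424, at -1.25, -1.24 and -1.25. Those nearest to miR-31 were miR-210, miR-106b and miR-92, at -1.83, -1.84 and -1.81. This likeness is over 2 libraries only and is a description, on clean reads.

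The 9 listed epithelial miRNAs, chosen as markers of epithelium in general, had reads in each library. They do not mark the basal and progenitor cells in which miR-205 has been described. The 5 members of the miR-200 family, which repress ZEB1 and ZEB2, summed to 2477 RPM in the dry period against 1254 RPM at peak lactation, an order that turns around per conserved miRNA read. Of these 5, miR-200a (15595 and 6480 reads) and miR-429 (1695 and 450 reads) were called lower on clean reads. The others had log2 fold changes of -0.96 for miR-200b (11108 and 6058 reads), -0.45 for miR-200c (7394 and 5725 reads) and -0.09 for miR-141 (991 and 986 reads). Of the other 4 epithelial miRNAs, the co-transcribed miR-183, miR-182 and miR-96 were called lower, from 101 to 5, 489 to 36 and 75 to 4 reads. miR-375, known from secretory and luminal cells, had 4792 and 3879 reads and a log2 fold change of -0.39. In all, 5 of these 9 were called lower and 0 higher, with a median log2 fold change of -1.35, beside -1.44 over all 257 tested miRNAs and a background of 67.7%.

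Set against the summed reads of these epithelial miRNAs, miR-205 and miR-31 were each lower at peak lactation. For every 100 reads of the 9, there were 7.38 reads of miR-205 in the dry period (7.12 to 7.66) against 5.89 at peak lactation (5.58 to 6.22). For miR-31 there were 0.438 (0.379 to 0.506) and 0.233 (0.179 to 0.303). Neither pair of intervals overlapped, and this ratio does not depend on the scaling. It does depend on the partner, since the epithelial miRNAs did not change alike. The log2 fold change of miR-205 was below that of miR-141 by 1.16 (difference -1.16, -1.31 to -1.0), of miR-375 (-0.86, -0.97 to -0.75), of miR-200c (-0.79, -0.90 to -0.69) and of miR-200b (-0.29, -0.39 to -0.19). It was close to that of miR-200a (0.10, 0.003 to 0.20) and above those of miR-429 (0.75, 0.57 to 0.92), miR-182 (2.60, 2.10 to 3.10), miR-96 (3.06, 1.61 to 4.52) and miR-183 (3.17, 1.87 to 4.47). miR-31 lay below miR-200a, miR-200b, miR-200c, miR-141 and miR-375 by 0.48 to 1.74 (differences -0.48 to -1.74), above the miR-183 group by 2.01 to 2.59, and within counting error of miR-429 (0.16, -0.30 to 0.62).

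Markers of other cells differed between the libraries too, and their part in the values of miR-205 and miR-31 was not tested. No miRNA of these lists was at 0 in either library. Summed levels on clean reads went from 11846 to 5199 RPM for miR-143 and miR-145 of smooth muscle and myoepithelium, and from 18091 to 5016 RPM for 6 stromal miRNAs led by miR-199a-3p and miR-140. They went from 129 to 81.4 RPM for miR-126 and miR-126* of endothelium, and from 1811 to 1462 RPM for 7 immune miRNAs led by miR-146b and miR-142. The 4 muscle miRNAs, among them miR-1 and miR-206, went from 7241 to 3847 RPM. Per conserved miRNA read each of these sums was higher, not lower, at peak lactation. The 3 red blood cell miRNAs went from 110 to 190 RPM, with miR-451 called higher and miR-486 at a log2 fold change of 0.15. In 1 direction or the other, miRNAs called on clean reads numbered 1 lower of 2 for smooth muscle, 5 lower of 6 for stroma, 0 of 2 for endothelium, 4 lower of 7 for immune cells, 3 lower of 4 for muscle and 2 higher of 3 for red blood cells. Over all 257 tested miRNAs the background was 67.7% lower and 1.17% higher on clean reads, turning to 5.84% lower and 33.1% higher on conserved miRNA reads, so the counts of lower miRNAs say nothing particular of these lists.

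The change of miR-205 was within counting error of the summed smooth muscle and myoepithelial miRNAs (difference of log2 fold changes -0.06, -0.15 to 0.03), but of neither miRNA in it. On clean reads miR-143, with most of the reads, stood at -0.86 (-0.87 to -0.85) and miR-145 at -2.76 (-2.79 to -2.72), on either side of the -1.25 of miR-205, and all 3 stand 2.08 higher per conserved miRNA read. The change of miR-205 was above that of the stromal sum by 0.61 (0.51 to 0.70) and below those of the miR-200 family (-0.26, -0.36 to -0.17), muscle (-0.33), endothelial (-0.58), other epithelial (-0.69), immune (-0.94) and red blood cell sums (-2.03). The immune and muscle sums join miRNAs on either side of miR-205. On clean reads miR-146b, with most of the immune reads, stood at -0.03 and miR-142 at -1.64. In the muscle sum miR-1, with most of the reads, stood at -0.90 and miR-206 at -2.60. Being below these 2 sums is thus not being below each miRNA in them. The change of miR-31 was within counting error of the stromal sum (0.02, -0.42 to 0.45), which joins miRNAs that changed unequally. On clean reads miR-199a-3p (-2.96), miR-199b (-2.50), miR-214 (-2.45) and miR-199a-5p (-2.25) had values below the -1.83 of miR-31, and miR-140 (-1.18) and miR-152 (-0.92) had values above it. The change of miR-31 was below those of the smooth muscle and myoepithelial sum (-0.64, -1.08 to -0.21) and the miR-200 family (-0.85, -1.28 to -0.41), and below the other sums too, from muscle (-0.92) to red blood cells (-2.62). Single miRNAs of these sums can lie below miR-31, as miR-145 and miR-206 did. The differences of log2 fold changes are the same in any scaling.

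The 3′ end of both miRNAs varied, with the same 3 leading forms in each library. Tags are distinct read sequences, and 55 tags were counted for miR-205 and 21 for miR-31. The 5 tags with most reads of each are shown because they carry most of its level, written as DNA with the bases that differ from the listed sequence in capitals. A substitution names the listed base, its position from the 5′ end and the base of the tag.
miR-205 listed end: tccttcattccaccggagtctgt
miR-205 without base 23: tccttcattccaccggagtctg
miR-205 without bases 22 and 23: tccttcattccaccggagtct
miR-205 with T23A: tccttcattccaccggagtctgA
miR-205 without the last 3 bases: tccttcattccaccggagtc
miR-31 listed end: aggcaagatgctggcatagctgt
miR-31 without base 23: aggcaagatgctggcatagctg
miR-31 without bases 22 and 23: aggcaagatgctggcatagct
miR-31 with T23A: aggcaagatgctggcatagctgA
miR-31 with G22A: aggcaagatgctggcatagctA

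For miR-205, the tag with the listed end had 1013 reads in the dry period against 472 at peak lactation, the tag of 22 nt had 991 and 436, and that of 21 nt had 771 and 347. The tag with T23A had 110 and 43 reads, and the tag of 20 nt 55 and 21. The first 3 of these took 89.0% of the reads of miR-205 in the dry period against 90.2% at peak lactation. All 5 tags had like log2 fold changes on clean reads, from -1.47 to -1.18, and their intervals overlapped, while per conserved miRNA read each stands 2.08 higher and above 0.

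For miR-31 the same forms led, with 59 and 14 reads of the listed end, 47 and 13 of the tag of 22 nt and 40 and 15 of the tag of 21 nt. The tag with T23A had 16 and 5 reads and that with G22A 4 and 2. The first 3 took 78.9% and 76.4% of its reads. At these counts the order of the 3 leading tags is not set.

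**Figure D4:**
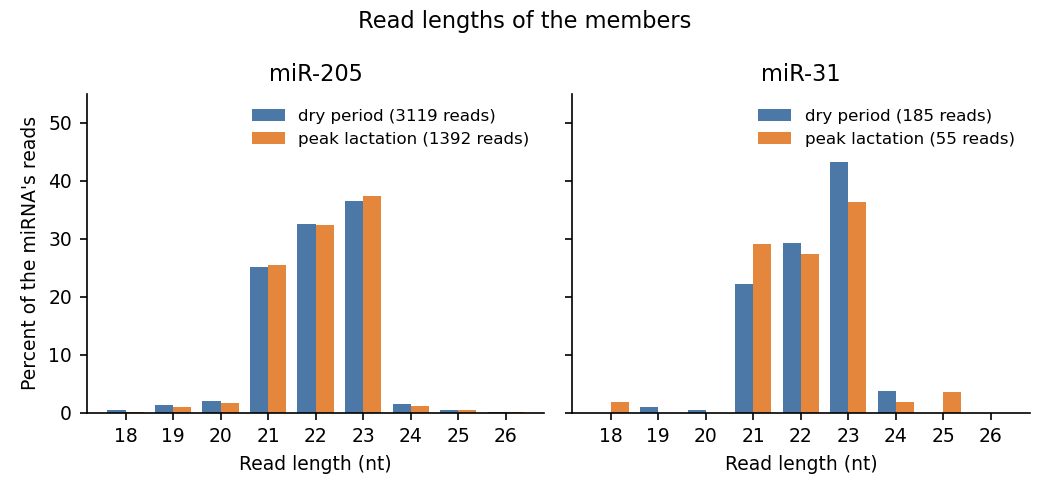
Share of the reads of miR-205 (left) and miR-31 (right) at each read length from 18 to 26 nt, in percent, in the dry period library (blue) and the peak lactation library (orange). Lengths of 21, 22 and 23 nt held 25.1, 32.6 and 36.5% of miR-205 reads in the dry period and 25.4, 32.3 and 37.3% at peak lactation, and for miR-31, which rests on 185 and 55 reads, 22.2, 29.2 and 43.2% and 29.1, 27.3 and 36.4%. For miR-205, 1 read in each library was longer and is off the axis.

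Reads were sorted into 4 classes of 3′ end, namely identical to the listed sequence, shorter, longer (the whole sequence and further bases) and changed (at least 18 listed bases followed by other ones). For miR-205 the identical class held 32.5% of reads in the dry period against 33.9% at peak lactation (difference 1.43 points, Newcombe -1.52 to 4.43). The shorter class held 60.0% and 58.9% (difference -1.08 points, -4.19 to 2.01), the longer class 1.67% and 1.44%, and the changed class 5.87% and 5.75%. Any shift of the 3′ ends of miR-205 between the libraries was thus within a few points. For miR-31 the classes held 31.9% and 25.5% (identical, difference -6.44 points, -18.4 to 7.87), 48.6% and 52.7% (shorter, 4.08 points, -10.7 to 18.5), 2.70% and 1.82% (longer) and 16.8% and 20% (changed). Over the 8 comparisons of a class between the libraries, the lowest p was 0.35 (Fisher's exact test, two-sided), with Benjamini-Hochberg adjusted values from 0.86 to 1. For miR-31 the intervals leave room for shifts of over 10 points.

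**Figure D5:**
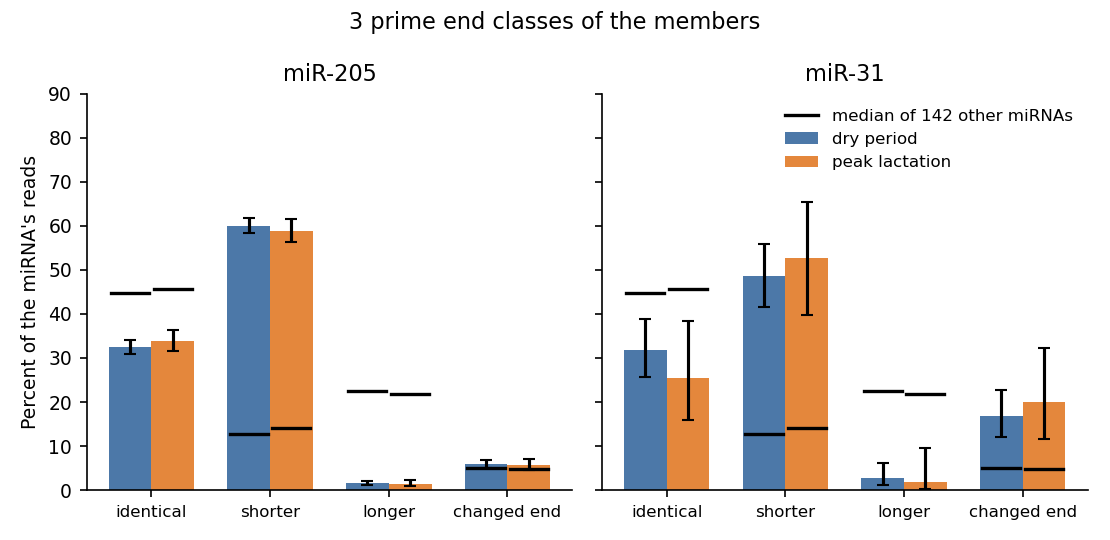
Share of reads in each 3′ end class for miR-205 (left) and miR-31 (right), in percent, in the dry period library (blue) and the peak lactation library (orange), with Wilson 95% intervals. Black lines are the medians of 142 other miRNAs with at least 100 reads in both libraries. The shorter class holds 60.0 and 58.9% for miR-205 and 48.6 and 52.7% for miR-31, beside medians of 12.6 and 14%.

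Short ends took a larger share of both miRNAs than of most of the 142 other miRNAs that had at least 100 reads in both libraries. The median share of shorter reads among those was 12.6% in the dry period against 14% at peak lactation. Of the 142, 5 are listed at 18 nt and cannot have shorter reads, and without them the medians were 14.5% and 14.5%. The share of miR-205 was above 142 and 141 of the 142, and that of miR-31 above 138 and 139. Of the others, 24 are also listed at 23 nt, a subset chosen after the data were seen. Among those 24 the medians were 33.0% and 30.2%, and miR-205 was above 24 and 23 of them and miR-31 above 20 and 22. Reads that ran past the listed end were few, with the medians of the 142 at 22.4% and 21.7% and only 1 of them below miR-205 in either library. Among the 24 listed at 23 nt the medians were lower, at 9.05% and 11.1%, and 0 were below miR-205.

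Reads with a changed end made a larger share of miR-31 than of miR-205. The gap was 10.9 points in the dry period (6.11 to 17.0, Fisher's exact test, adjusted p = 3.5e-06 over 8 comparisons) and 14.3 points at peak lactation (5.70 to 26.7, exact test, adjusted p = 0.0016). The share of miR-31 was above 125 and 132 of the 142 other miRNAs, whose medians were 5.07% and 4.76%. Of the 142, 5 are listed at the shortest length and cannot have a changed end. Among the 24 listed at 23 nt the medians were higher, at 9.60% and 9.01%, and miR-31 was above 19 and 23 of them. Conversely the shorter class was smaller in miR-31 by 11.3 points in the dry period (difference -11.3, -18.6 to -3.98, exact test, adjusted p = 0.0070) and by 6.18 points, within counting error, at peak lactation (difference -6.18, exact test, adjusted p = 0.54).

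Adenine was the usual base past the identical stretch in changed reads. A changed end cannot begin with the listed base, and since the shared ending CUGU holds no A, A was open to it at each of those 4 positions and U at only some, so these shares are not set against other miRNAs. Of 263 miR-205 reads with a changed end over both libraries, the first base past the stretch was A in 218 (82.9%) and T in 21. Of 42 such miR-31 reads, it was A in 33 (78.6%) and T in 7. Longer reads have no such limit, and there the first added base was A in 49 of 72 reads of miR-205 and T in 19, while for miR-31 it was A in 2 of 6 reads and T in 4, too few to set an order. T23A was the leading changed end of both miRNAs, as the sequences above show.

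The 5′ end, which sets the seed, was nearly uniform. Reads of the same miRNA that began up to 3 bases before or after the listed start were left out of the counts above. There were 35 of them for miR-205 in the dry period library, 1.11% of its reads (0.80 to 1.54), and 12 in the peak lactation library, 0.85% (0.49 to 1.49). Of these, 16 and 8 reads began 2 bases late, which moves the seed, and 10 and 3 began 1 base early. The medians over the 142 other miRNAs were 0.86% and 0.93%, so miR-205 was near the middle. miR-31 had 0 and 1 such reads.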

How the data were processed

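Small RNA from mammary gland was sequenced in 1 pooled library per stage. The authors removed low-quality reads, adaptor artefacts, poly(A) reads and reads below 18 nt, and deposited each distinct clean read with its raw count, with no alignment or scaling. The labels name CASAVA, and its version is not given in the sources used here. Stages were taken from the sample titles.

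A tag was counted for the listed conserved miRNA whose sequence it matched over the longest run of bases from its start (18 nt or more), with any 3′ end, and ties were counted for each. Counts were divided by clean reads and multiplied by 1000000. A 0 became 0.01 RPM. Testing took the 257 of 346 miRNAs that reached 1 RPM in a library. Calls needed an absolute log2 fold change above 1 and an Audic-Claverie p below 0.01, two-sided from the smaller tail. Intervals are Wilson, for log2 fold changes from the split of reads, or Newcombe for differences of shares. Fisher's exact test compared read tables.

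The members, lists and tests were chosen with earlier results of these data known. The named miRNAs are the members, their neighbours in rank, the 3 nearest each in log2 fold change (100 reads or more in both libraries), the epithelial lists, the 2 most abundant of each other list and the 5 leading tags of each member.

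Alternatives covered other counting rules (identical tags, a 20 nt stretch, 1 mismatch, shifted 5′ ends, tags with 1 read left out), scalings, filters, tests and 1 read added to each count. TMM factors came from edgeR 4.0.16 and size factors from DESeq2 1.42.0, in R 4.3.3, with no test by either. Counting and tests were tested on simulated data in Python 3.11.15 with numpy 2.4.6, scipy 1.17.1 and matplotlib 3.10.9. Genome positions, hairpins and opposite-arm miRNAs of the members were not analysed here.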

Additional observations from a re-analysis of the deposited data

Results flagged for a closer look

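Reads that the counting left out carried miR-205 signal above the limit of a count of 0. With a 5′ end shifted by up to 3 bases there were 35 reads in the dry period against 12 at peak lactation. Reads with 1 mismatch to the first 18 bases numbered 140 in the dry period against 65 at peak lactation, which is 4.49% and 4.67% of the counted reads, beside medians of 3.45% and 3.63% over 142 other miRNAs. The leading substitutions were C3T with 17 and 5 reads, C10T with 15 and 9 and C13T with 11 and 3, with positions counted from 1 at the 5′ end of the listed sequence. For miR-31 such mismatched reads numbered 3 and 1.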

How the results depend on the processing

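Other scalings changed the results. For miR-205 the log2 fold change of -1.25 on clean reads turned to 0.84 on conserved miRNA reads, 0.054 with TMM factors, 0.15 with DESeq2 size factors and 0.19 with the median of the tested miRNAs subtracted, a setting chosen after seeing the data. For miR-31 the value of -1.83 turned to 0.25 on conserved miRNA reads, and lost its call at -0.53 (TMM), -0.44 (DESeq2) and -0.39 (median subtracted). The 174 miRNAs called lower became 15, 48 and 42 with conserved miRNA reads, TMM and DESeq2, and the 3 called higher became 85, 22 and 28, or 6 with shifted 5′ ends counted. Which scaling is closer to the tissue was not tested. Conserved miRNA reads are those counted here, and the study's own totals of such reads, which lie closer together, were not used as a scale. The other 10 alternatives for each miRNA kept it called lower. The difference between miR-31 and miR-205 kept its direction and stayed below 0.05 in 6 alternatives (-0.97 to -0.56, exact p from 0.0037 to 0.027). The shares of identical and shorter reads kept their direction and passed no threshold in 4 alternatives each. Ranks ran from 69 to 76 and 66 to 76 for miR-205, and from 148 to 170 and 157 to 181 for miR-31, in the dry period and peak lactation libraries. Depth limits miR-31, with 55 reads at peak lactation. No paired analysis was possible because each stage had 1 pooled library, and for the same reason no library could be left out.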

Other observations

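Other miRNAs that share the last 4 bases of miR-205 and miR-31 were looked at after the data were seen, so their values are a description. Of the 142 other miRNAs with at least 100 reads in both libraries, 6 are listed with the ending CUGU. Listed length bears on the share of reads shorter than the listed sequence, so values are given by length. At 22 nt, the 4 with this ending had medians of 33.5% in the dry period against 33.3% at peak lactation. The medians over 61 with another ending were 12.5% and 13.8%. The medians of the 4 count the same reads under both miR-92 and miR-92a, which raises them. miR-125a and miR-22-3p, the rest of the 4, lay below 33.5% and 33.3% but above 12.5% and 13.8%. At 23 nt only miR-660 had this ending, beside medians of 31.2% and 29.8% over 23 others. At 24 nt only miR-146b had it, beside 31.6% and 31% over 6 others. miR-660 stood highest of the 6, at 58.2% and 60.3%, next to 60.0% and 58.9% for miR-205. miR-146b, placed in the immune list above, followed at 47.0% and 43.1%. miR-125a was lowest in both libraries, at 26.4% and 23.4%. Of the 6, miR-92 and miR-92a share all their counted reads and are not separate cases.

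Short ends were not particular to that ending. miR-29b, the neighbour of miR-205 in rank in the dry period library, had 56.9% and 54.7% shorter reads, and miR-15b had 46.1% and 55.9%.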
